A study of Homo sapiens with 4 samples.

Results

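The Hippo pathway was followed through 40 genes in RNA-seq counts of LNCaP, an established human prostate cancer line that responds to androgen. The genes were taken by name from a list of Hippo kinases, adaptors, inhibitors, YAP/TAZ, TEAD factors and YAP targets, a rule that uses no measured value, though the list was drawn up with earlier results of these data known. They are 40 of the 60675 annotated genes in the count files, and all 40 were found and passed the filter on low counts, which left 17600 genes for the test. They were arranged by role into 29 genes on the inhibitory side of the pathway, 2 LIM-domain proteins that bind the LATS kinases, and 9 effectors and targets.

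The cells were kept in medium with hormone-depleted serum, and both groups received 1 nM R1881, a synthetic androgen, for 72 h. In 2 samples R1881 was given with vehicle (DMSO). In the other 2 samples it was given with 50 µM CPI-455, an inhibitor of the KDM5 family of H3K4 demethylases. Every library came from the same established line, no cells without androgen entered the comparison, and a line is a model of one tumour. The comparison asks how the Hippo genes of androgen-treated cells differed when the inhibitor was present.

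In the Hippo pathway the kinases STK3 and STK4 (MST2 and MST1), with the adaptor SAV1, activate LATS1 and LATS2, which work with MOB1. LATS phosphorylates the coactivators YAP and TAZ (genes YAP1 and WWTR1), which are then held in the cytoplasm or degraded. Unphosphorylated YAP and TAZ enter the nucleus, bind the TEAD transcription factors and switch on growth and matrix genes such as CCN1, CCN2 and ANKRD1. Much of this control acts on the proteins, and the values here are of RNA alone.

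The vehicle libraries held 19623553 and 20690819 counted fragments, and the others 9522920 and 5401588. A single fragment was worth between 0.0458 and 0.198 CPM (counts scaled to a common library size). Depth therefore moved with treatment. With every library thinned to the shallowest total, 12 of the 17 members called lower and all 3 called higher (below) still passed. Of the luminal markers, KLK3 (prostate-specific antigen) was at 404 and 357 CPM in the vehicle libraries and 107 and 136 CPM in the treated ones. KLK2 went the other way, from 84.2 and 64.4 CPM to 108 and 111 CPM. FOLH1, KRT8 and KRT18 were lower in both treated libraries than in both vehicle ones, and EPCAM overlapped. All of these were detected in every library. Basal markers summed to at most 1.24 CPM, stromal markers to 4.30 to 5.21 and then 10.2 to 10.7 CPM, mostly COL1A1, and leukocyte and endothelial markers to at most 1.65 CPM, while KRT5 and LUM were at 0 in every library. The part of these marker differences in the results was not tested, and in bulk RNA fewer cells of a type and less RNA per cell cannot be told apart.

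With CPI-455, 14 of the 29 genes on the inhibitory side of the pathway fell, LATS2, FAT1 and AMOTL1 among them, as did YAP1, WWTR1 and TEAD1. The YAP target CCN1 rose 14.6-fold and was the member with the highest level in the treated cells. The targets CCN2 and ANKRD1 did not pass the rule given next, and further YAP/TAZ targets outside the members moved both ways (below). A gene was called changed when its false discovery rate (FDR, the Benjamini-Hochberg adjusted p of the edgeR quasi-likelihood test over all 17600 genes) was below 0.05 and its level differed at least 2-fold between R1881 + CPI-455 and R1881 + vehicle. By this rule 17 of the 40 members fell (42.5%), 3 rose (7.5%: CCN1, RASSF1 and LLGL2) and 20 were not called. Over all tested genes 21.3% were called lower and 21.0% higher, and over protein-coding genes, which all 40 members are, 24.4% and 15.6%. The median log2 fold change (CPI-455 over vehicle, so that negative values are lower with the inhibitor) was -0.82 over the members, -0.21 over tested protein-coding genes and -0.04 over all tested genes. Both libraries of one group lay wholly outside those of the other in 36 members (29 lower and 7 higher), or 90%, against 81.9% of all tested genes, so separation of the groups was the usual state of a gene in these data.

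**Figure D1:**
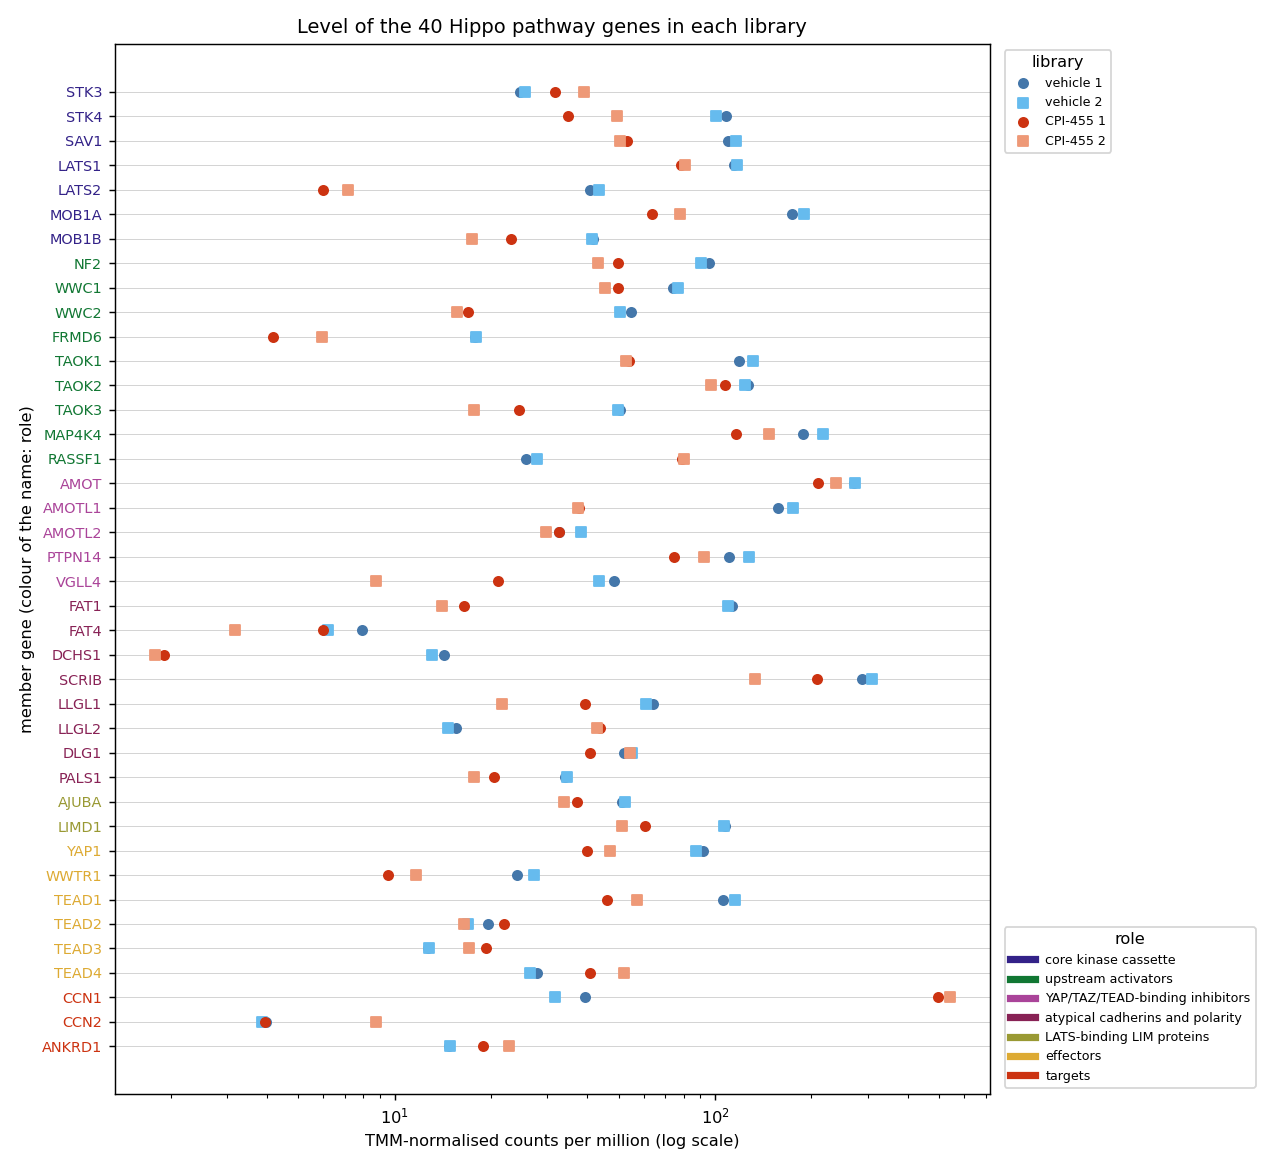
Level of each of the 40 Hippo pathway genes (rows, in order of role) in each of the 4 libraries, as TMM-normalised CPM on a logarithmic axis; each point is 1 library. CCN1 moves from 39.3 and 31.6 CPM with vehicle to 497 and 542 CPM with CPI-455, while LATS2, FAT1 and DCHS1 move to the left.

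The rule of the comparison sets upstream inhibitors beside effectors and targets. On the inhibitory side 14 of 29 members fell and 2 rose (RASSF1 and LLGL2), and the median log2 fold change was -0.999. By the same rule 21.3% of all tested genes were called lower and 21.0% higher. Among the 9 effectors and targets 3 fell (YAP1, WWTR1 and TEAD1) and 1 rose (CCN1), with a median of 0.48. That median pooled unlike roles, since the 6 effectors alone had a median of -0.48 and the 3 targets 0.64. The positive median of the 9 rested not on YAP1 and WWTR1 but on TEAD2, TEAD3, TEAD4 and the 3 targets. All of the latter had positive log2 fold changes, but only CCN1 was called and besides CCN1 only TEAD4 passed the FDR. The signs of TEAD2 and CCN2 did not hold in every setting. The sign of each median held for the settings tried, but its size followed the scaling of the libraries. The median of all tested genes itself was -0.23 with library totals alone and 0.14 with upper-quartile scaling, where the inhibitory median was -1.19 and -0.82 and the effector and target median 0.29 and 0.65. With no fold minimum, 26 members passed the FDR lower and 5 higher, against 32.8% and 29.8% of all tested genes.

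The members are long genes, and change followed length in these libraries. Their median exon length was 8572.5 bases, against 5068 for tested protein-coding genes, and Spearman's rank correlation between exon length and log2 fold change was -0.40 over the 40 members and -0.25 over all 17600 genes, a description across genes that share the same 4 libraries. When a smooth trend of each library on exon length and exon GC content was removed, the members called lower went from 17 to 8 and those called higher from 3 to 4, against 18.0% and 21.1% of all tested genes, so that the share called lower was then near that of all genes. The 8 that kept their call were LATS2, WWC2, FRMD6, AMOTL1, VGLL4, FAT1, DCHS1 and LLGL1. The 9 that lost it were STK4, SAV1, MOB1A, MOB1B, TAOK1, TAOK3, YAP1, WWTR1 and TEAD1. Whether the trend is one of the libraries or of the cells was not tested. Values below are without this correction unless stated, and corrected values are given where a call or a sign depends on it and for some other genes.

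**Figure D2:**
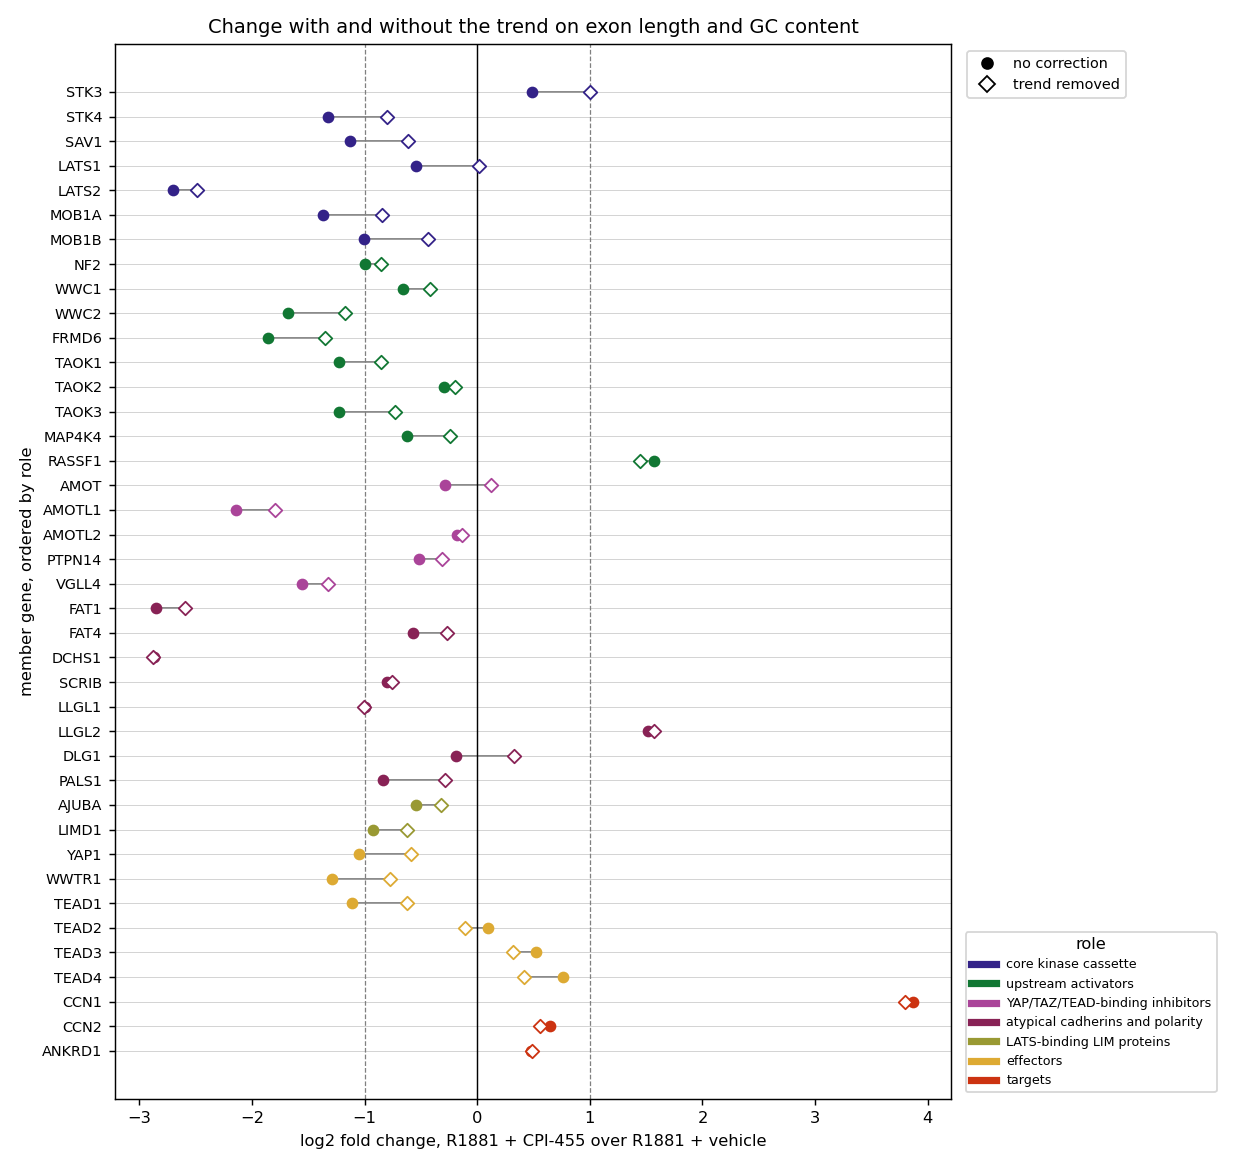
Log2 fold change (R1881 + CPI-455 over R1881 + vehicle) of the 40 genes as fitted (filled circles) and after correction for exon length and GC content (open diamonds), coloured by role; dashed lines mark a 2-fold change. Core cassette genes such as LATS1 (-0.54 to 0.01) shift to the right, while DCHS1, FAT1, LATS2 and CCN1 keep most of their change.

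The steepest falls among the members were in the large cadherins at its membrane end. FAT1, an atypical cadherin of giant size that acts upstream of the kinases, was at 113 and 110 CPM with vehicle and 16.4 and 14.1 CPM with CPI-455 (chr4:186587783-186726722, minus strand, GRCh38, ENSG00000083857). Its level was 7.23-fold lower, a log2 fold change of -2.85 (SE 0.15, FDR = 9.441e-07), and the groups were far apart. DCHS1, which encodes the dachsous cadherin that pairs with FAT4 between cells, was at 14.3 and 13.1 CPM with vehicle and 1.91 and 1.79 CPM with CPI-455. The latter rest on 17 and 9 fragments, and the change was -2.87 (SE 0.31, FDR = 4.418e-05), or 7.33-fold lower. FAT4, the receptor in that pair, was scarce throughout, with 7.91 and 6.18 CPM against 5.96 and 3.17 CPM, and was not called (-0.57, FDR = 0.201). Both FAT1 and DCHS1 kept their calls when the length and GC trend was removed (-2.59 and -2.88).

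The apico-basal polarity genes, whose proteins place Hippo components at cell junctions, did not move as one. LLGL1 and LLGL2 are paralogs of the lethal giant larvae family, and they were called in opposite directions. LLGL1 went from 63.9 and 61.1 CPM to 39.4 and 21.6 CPM, a fall of 2.001-fold (SE of the log2 value 0.23, FDR = 0.00412) at the very edge of the rule. LLGL2 rose from 15.5 and 14.7 CPM to 43.7 and 42.8 CPM, 2.87-fold higher (1.52, SE 0.16, FDR = 3.877e-05). Within each library the ratio of LLGL2 to LLGL1, in RPKM (CPM divided by exon length in kilobases), was 0.204 and 0.202 with vehicle but 0.933 and 1.66 with CPI-455, a comparison that no scaling between libraries can alter. SCRIB (-0.80, FDR = 0.00395) and PALS1 (-0.83, FDR = 0.00222), scaffolds of the basolateral and apical complexes, passed the FDR below 2-fold, and DLG1 (-0.19, FDR = 0.346) overlapped between groups and had a positive value with the trend removed (0.33). LLGL1 lost its call with upper-quartile or RLE scaling, with thinned libraries, with a minimum of 10 counts in every library and without the second CPI-455 library.

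Among the upstream activators of the kinases 4 of 9 fell and 1 rose, against 21.3% and 21.0% of all tested genes, and the median was -0.999. With the trend removed 2 of 9 were called lower and the median was -0.73. FRMD6, a FERM-domain partner of the NF2 protein, fell from 17.8 and 17.9 CPM to 4.16 and 5.95 CPM, 3.63-fold (-1.86, SE 0.27, FDR = 2.481e-04). WWC2, a paralog of the KIBRA scaffold WWC1, fell from 54.8 and 50.6 CPM to 17.0 and 15.7 CPM, 3.21-fold (-1.68, SE 0.16, FDR = 2.09e-05). CLDN22 on the opposite strand covers 25.9% of the WWC2 exon bases, so the WWC2 values rest on the remaining bases. WWC1 itself was at 73.8 and 76.9 CPM against 49.8 and 45.2 CPM and was not called (-0.66). NF2, which encodes the tumour suppressor Merlin that brings LATS to the membrane, stood at 95.8 and 90.8 CPM with vehicle and 49.8 and 43.0 CPM with CPI-455. Its groups did not overlap and its FDR was 1.699e-04, but at 1.999-fold it was just short of the rule, and it passed with library totals alone and without a filter.

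The TAO kinases, which phosphorylate STK3 and STK4, differed among themselves. TAOK1 went from 118 and 131 CPM to 53.8 and 52.9 CPM (-1.23, FDR = 2.981e-05) and TAOK3 from 50.7 and 49.6 CPM to 24.4 and 17.6 CPM (-1.23, FDR = 2.942e-04), both called lower. TAOK2, at 127 and 124 CPM against 108 and 97.2 CPM, was not called (-0.29, FDR = 0.0528), and MAP4K4, a kinase that can act on LATS directly, gave -0.63 (FDR = 0.00401). With the trend removed, TAOK1 (-0.85) and TAOK3 (-0.73) were no longer past 2-fold.

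RASSF1, a scaffold that binds STK3 and STK4 and is well known as a tumour suppressor silenced in prostate cancer, was the exception among the activators. It rose from 25.8 and 27.7 CPM to 79.2 and 79.9 CPM, 2.97-fold (1.57, SE 0.14, FDR = 1.151e-05). The CPI-455 libraries held 704 and 403 fragments, against 544 and 606 in vehicle libraries of more than double the depth. Of its exon bases 17.9% also lie in RASSF1-AS1 on the opposite strand (chr3:50329782-50340980, minus strand for RASSF1), and fragments that fell on more than 1 gene were not counted, so the RASSF1 values rest on the remaining bases. The values are of the whole gene and do not separate its transcripts.

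In the core kinase cassette 5 of 7 members fell and none rose, against 21.3% and 21.0% of all tested genes, with a median of -1.13 (-0.62 with the trend removed). LATS2 led it. LATS2 was at 40.7 and 43.3 CPM with vehicle and 5.96 and 7.14 CPM with CPI-455, a 6.50-fold fall (-2.70, SE 0.20, FDR = 4.758e-06; ENSG00000150457, chr13:20973032-21061547, minus strand). Its paralog LATS1 moved less, from 115 and 117 CPM to 78.6 and 80.9 CPM (-0.54, SE 0.12, FDR = 0.00281), and was not called. The RPKM ratio of LATS2 to LATS1 was 0.548 and 0.574 with vehicle, against 0.118 and 0.137 with CPI-455. With the trend removed LATS2 kept its fall (-2.49) and LATS1 was at 0.01.

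The upstream kinases of the cassette showed the same kind of split. STK4 fell from 108 and 101 CPM to 34.9 and 49.6 CPM (-1.33, SE 0.17, FDR = 1.222e-04), while STK3 was at 24.7 and 25.6 CPM and then at 31.7 and 39.1 CPM (0.48, SE 0.17, FDR = 0.0325), the one cassette gene with a positive value. The STK4 to STK3 RPKM ratio was 5.74 and 5.18 with vehicle, against 1.44 and 1.67 with CPI-455. The adaptor SAV1 (110 and 117 CPM to 53.0 and 50.4 CPM, -1.13) and the LATS cofactors MOB1A (174 and 189 CPM to 63.4 and 77.5 CPM, -1.37) and MOB1B (41.5 and 41.3 CPM to 23.2 and 17.4 CPM, -1.01) all fell. Of the SAV1 exon bases 14.9% also lie in ATL1 on the opposite strand. With the trend removed STK4 (-0.80), SAV1 (-0.62), MOB1A (-0.84) and MOB1B (-0.44) were under 2-fold and STK3 (1.00) was called higher, so that 1 cassette member was called lower and 1 higher. MOB1B also lost its call with DESeq2, with RLE or upper-quartile scaling, with thinned libraries, with at least 10 counts in every library and without the second CPI-455 library, and SAV1 with upper-quartile scaling and thinned libraries.

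The proteins that hold YAP, TAZ or TEAD in check by binding them gave 2 falls among 5 genes and no rise. Over all tested genes 21.3% were called lower and 21.0% higher, and 5 genes are too few to set apart from those shares. AMOTL1, an angiomotin that keeps YAP at junctions, went from 157 and 175 CPM to 37.7 and 37.5 CPM, 4.42-fold lower (-2.14, SE 0.13, FDR = 1.654e-06). Its paralogs AMOT (271 and 273 CPM to 210 and 239 CPM, -0.28) and AMOTL2 (32.6 and 38.2 CPM to 32.6 and 29.7 CPM, -0.18) were not called, and AMOT had a value of 0.12 with the trend removed. The AMOTL1 to AMOT RPKM ratio was 0.491 and 0.542 with vehicle, against 0.152 and 0.133 with CPI-455, whereas AMOTL2 to AMOT overlapped, at 0.171 and 0.199 against 0.221 and 0.177. VGLL4, which competes with YAP for TEAD, fell from 48.4 and 43.5 CPM to 21.0 and 8.72 CPM (-1.56, SE 0.30, FDR = 0.00148), with CPI-455 libraries that differed widely from each other. Exons of ATG7 and another gene on the opposite strand cover 23.8% of the VGLL4 exon bases. The phosphatase PTPN14, a YAP-binding protein, gave -0.52 (FDR = 0.0111).

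AJUBA and LIMD1, LIM proteins that bind LATS and hold it inactive, act against the kinases. AJUBA was at 51.4 and 52.5 CPM against 37.0 and 33.9 CPM (-0.55, FDR = 0.00824), and LIMD1 at 107 and 107 CPM against 60.6 and 51.2 CPM (-0.93, FDR = 2.396e-04). Neither reached 2-fold.

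**Figure D3:**
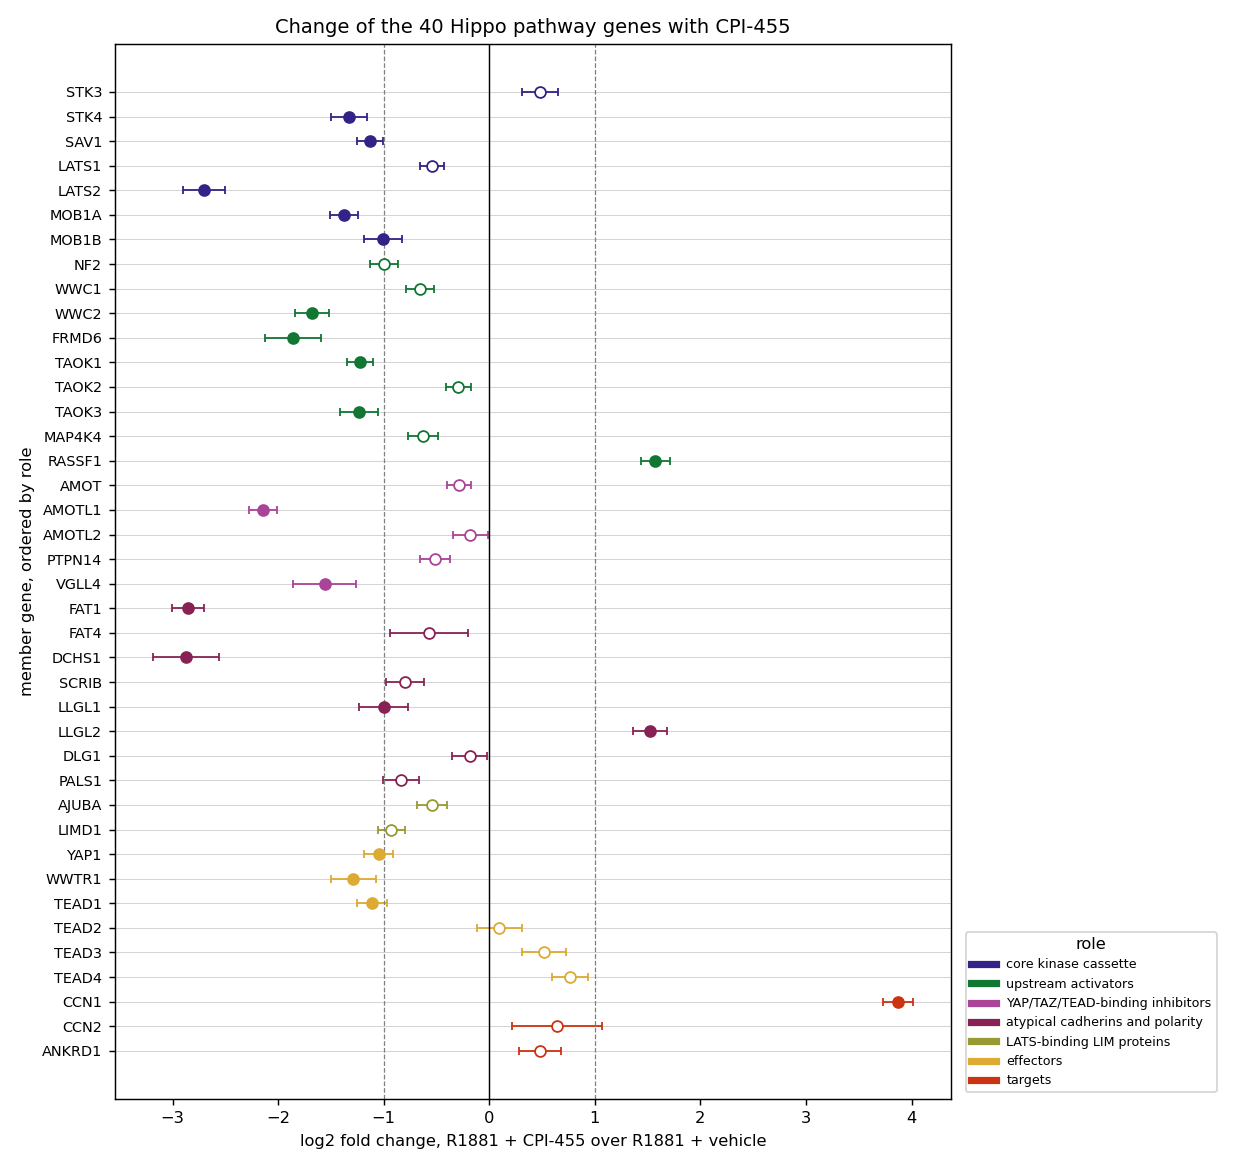
Log2 fold change of the 40 genes (R1881 + CPI-455 over R1881 + vehicle) with its standard error, ordered and coloured by role; filled points were called (FDR below 0.05 and at least 2-fold, dashed lines) and open points were not. The inhibitory roles lie mostly left of 0 with RASSF1 and LLGL2 on the right, and CCN1 stands alone near 3.87.

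Both coactivator genes fell. YAP1 went from 91.6 and 87.0 CPM to 39.9 and 47.0 CPM, 2.07-fold (-1.05, SE 0.14, FDR = 1.502e-04; chr11:102110461-102233423, plus strand). WWTR1, which encodes TAZ, went from 24.1 and 27.2 CPM to 9.56 and 11.7 CPM, 2.44-fold (-1.29, SE 0.21, FDR = 5.853e-04). The RPKM ratio of WWTR1 to YAP1 was 0.197 and 0.233 with vehicle, against 0.179 and 0.186 with CPI-455, so YAP1 stayed the more abundant of the pair in every library. With the trend removed YAP1 (-0.59) and WWTR1 (-0.78) were no longer past 2-fold, and YAP1 also lost its call with upper-quartile scaling, with thinned libraries and without the first CPI-455 library. With glmTreat, a test against a 2-fold change itself, 0 of the 6 effectors (YAP1, WWTR1 and the TEAD genes) were called lower.

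The 4 TEAD genes, which encode the DNA-binding partners of YAP and TAZ, shifted relative to one another. TEAD1 fell from 106 and 115 CPM to 46.0 and 57.1 CPM (-1.11, SE 0.14, FDR = 1.265e-04), a call lost in the same settings as that of YAP1. TEAD4 was at 27.7 and 26.5 CPM with vehicle and 40.7 and 52.1 CPM with CPI-455 (0.76, SE 0.17, FDR = 0.00332) and did not reach 2-fold. TEAD3 (0.52, FDR = 0.0520) and TEAD2 (0.09, FDR = 0.723) were not called, and TEAD2 overlapped between groups and took either sign across the settings tried. Per length of exon, TEAD1 made up 30.8% and 34.0% of the summed TEAD RPKM with vehicle and 12.3% and 13.9% with CPI-455, while TEAD4 made up 36.9% and 35.7% and then 49.7% and 58.0%. The TEAD4 to TEAD1 ratio accordingly went from 1.20 and 1.05 to 4.04 and 4.17, and with 2 libraries against 2 an exact permutation test of any such ratio cannot give a p below 0.333. TEAD4 has short exons (2272 bases in all, against 10379 for TEAD1), and with the length and GC trend removed TEAD4 was at 0.42 and TEAD1 at -0.62.

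**Figure D4:**
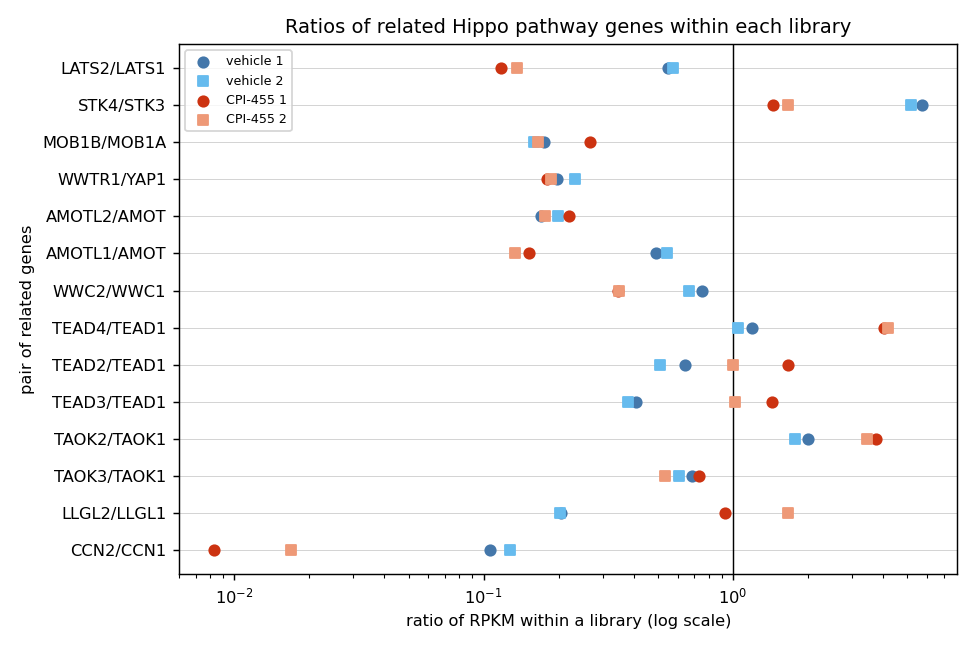
Ratio of RPKM between related genes within each library, on a logarithmic axis; each point is 1 library and the line marks equal levels. STK4/STK3, LATS2/LATS1, AMOTL1/AMOT and CCN2/CCN1 are lower in both CPI-455 libraries and LLGL2/LLGL1 and TEAD4/TEAD1 higher, while AMOTL2/AMOT and TAOK3/TAOK1 overlap.

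Of the 3 classical YAP targets only CCN1 was called. CCN1 (CYR61), a secreted matricellular protein, rose from 39.3 and 31.6 CPM to 497 and 542 CPM, 14.6-fold (3.87, SE 0.14, FDR = 3.722e-07; ENSG00000142871, chr1:85580761-85583962, plus strand). The shallower CPI-455 libraries held 4419 and 2731 CCN1 fragments against 830 and 691 with vehicle, and by mean RPKM the gene went from the 7th to the 1st place among the 40 members (14.4 to 212). CCN2 (CTGF), its close relative, was scarce, with 84 fragments in both vehicle libraries, 35 in the first CPI-455 library and 44 in the second. At 3.98 and 3.85 CPM against 3.94 and 8.72 CPM its groups overlapped (0.64, SE 0.42, FDR = 0.213), and without the second CPI-455 library its value was -0.03, without the first 1.14. ANKRD1, a muscle ankyrin-repeat protein gene used as a readout of YAP, was at 14.8 and 14.9 CPM against 18.9 and 22.8 CPM (0.48, SE 0.20, FDR = 0.0632). The interval of 2 SE around the CCN2 change thus spans 0, which leaves the direction of CCN2 unsettled at this depth. The CCN2 to CCN1 RPKM ratio was 0.106 and 0.128 with vehicle, against 0.00831 and 0.0169 with CPI-455.

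TEAD factors are known to act through a short sequence, the M-CAT element. The letters GGAATG (or CATTCC, the same on the other strand) were searched in RefSeq promoter windows on GRCh38.p14, from 250 bases before to 50 after each annotated start. These windows were available for 31 of the 40 members, in 50 entries, and CCN1 had none. The letters occurred in 10 of the 50 entries (20%), each of a different gene, against 14% of the 35116 entries of all genes. CCN2 had 3 matches, at -169, -104 and -95 from the start, a number reached in 45 of all entries (0.128%), and ANKRD1 had 2, at -220 and -128. Among genes with an entry the letters were found in 4 of 15 called lower (LATS2, TAOK3, WWC2 and YAP1), 1 of 1 called higher (RASSF1) and 5 of 15 not called (AJUBA, AMOTL2, ANKRD1, CCN2 and PTPN14). These counts are per gene, and a gene with several entries counts if any of them matches. They cannot be set beside the 14%, which is per entry, and no share per gene over all genes is given. The 250 bases before the start are shown for the 2 targets with matches, for AMOTL2, known as a feedback inhibitor that YAP induces, and for YAP1 itself, read 5′ to 3′ on the strand of the gene with the match in capitals. They lie at chr6:131951373-131951622 (CCN2, minus strand), chr10:90921088-90921337 (ANKRD1, minus strand), chr3:134374448-134374697 (AMOTL2, minus strand, at one of its annotated starts) and chr11:102110197-102110446 (YAP1, plus strand).
CCN2: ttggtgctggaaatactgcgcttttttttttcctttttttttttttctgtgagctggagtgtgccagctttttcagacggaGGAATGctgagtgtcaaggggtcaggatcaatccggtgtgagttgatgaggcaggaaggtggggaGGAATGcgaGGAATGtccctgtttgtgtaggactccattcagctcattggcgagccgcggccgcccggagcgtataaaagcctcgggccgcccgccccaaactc
ANKRD1: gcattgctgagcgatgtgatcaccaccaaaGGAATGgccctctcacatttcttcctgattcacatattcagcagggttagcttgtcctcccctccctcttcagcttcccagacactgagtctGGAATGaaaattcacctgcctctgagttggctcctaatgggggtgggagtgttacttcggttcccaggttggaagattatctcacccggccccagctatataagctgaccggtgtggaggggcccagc
AMOTL2: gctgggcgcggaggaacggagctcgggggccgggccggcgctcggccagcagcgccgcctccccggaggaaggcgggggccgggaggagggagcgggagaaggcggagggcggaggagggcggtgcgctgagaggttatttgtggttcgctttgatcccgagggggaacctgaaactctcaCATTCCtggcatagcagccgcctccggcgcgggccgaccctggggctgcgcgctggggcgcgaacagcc
YAP1: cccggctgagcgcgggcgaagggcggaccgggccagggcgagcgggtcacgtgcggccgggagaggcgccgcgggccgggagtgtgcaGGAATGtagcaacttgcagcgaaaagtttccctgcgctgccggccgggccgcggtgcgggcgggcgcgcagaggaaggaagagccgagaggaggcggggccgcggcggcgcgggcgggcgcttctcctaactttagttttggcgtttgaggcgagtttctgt
Matches were found in windows of genes called lower, called higher and not called, and CCN1, the only one of the 3 targets called, had no window. A match of 6 letters is a description of the window and not evidence of binding.

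Genes of the pathway outside the 40 members were counted in the same way. Of 62 listed, 54 were tested, 23 were called lower (42.6%) and 4 higher (7.41%), with a median of -0.84. Over all tested genes 21.3% were lower and 21.0% higher, with a median of -0.04. Over tested protein-coding genes the values were 24.4%, 15.6% and -0.21. The genes called lower include VGLL2, VGLL3, IGFBP3, NT5E and TGFB2, which passed the filter on low counts only through the vehicle libraries. No count of the other pathway genes with the exon length and GC trend removed is given here. Of the components of STRIPAK and PP2A, the phosphatase complex that restrains STK3 and STK4, 3 of 10 fell. SIKE1, an adaptor of the complex, fell from 213 and 218 CPM to 68.8 and 69.8 CPM (-1.64, FDR = 3.415e-06). Among the ubiquitin ligase and casein kinase genes for degradation of YAP and TAZ, 2 of 4 fell, and BTRC, which encodes the F-box protein β-TrCP, went from 81.8 and 83.7 CPM to 19.5 and 17.8 CPM (-2.14, FDR = 3.167e-06). Of the 14-3-3 genes, whose proteins retain phosphorylated YAP in the cytoplasm, 1 of 6 tested fell, YWHAG (-1.61, FDR = 7.141e-06). Of NDR and further MAP4K kinases 3 of 6 fell, and of further scaffolds, cadherins and polarity genes 6 of 13 tested, DLG5 among them (-1.63, FDR = 1.728e-04).

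Further YAP/TAZ targets from the same kind of list moved both ways, with 6 of 13 tested genes called lower, 3 called higher and a median of -0.48. Of those called lower, IGFBP3, NT5E and TGFB2 passed the filter on low counts only through the vehicle libraries, where they were higher. MYOF, AXL and RBMS3 were too scarce to be tested. The count of falls and the median therefore depend in part on the filter. GADD45A, a stress-induced gene of DNA repair and growth arrest, rose from 97.0 and 87.6 CPM to 283 and 319 CPM (1.70, FDR = 3.789e-06), and ARHGEF17, a guanine nucleotide exchange factor gene, from 7.20 and 6.09 CPM to 22.0 and 25.0 CPM (1.82, FDR = 1.051e-04). CCDC80, an extracellular matrix protein gene, fell from 25.9 and 21.9 CPM to 4.50 and 11.5 CPM (-1.67, FDR = 0.00270). These calls compare with 21.3% lower and 21.0% higher over all tested genes.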

How the data were processed

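RNA-seq was performed on LNCaP cells in 2 groups of 2 libraries, described in the methods as biological replicates. The labels do not name separate cultures, so p-values measure the spread between these libraries, which may in part be technical. The authors used Trim Galore for trimming and STAR for alignment to GRCh38, and featureCounts (v1.5.0-p1, with the gene models of Ensembl release 83) assigned fragments to genes. The values deposited are these counts over exons, without normalization. Per the file headers strand was not used, and fragments that fell on several places or genes were left out, so overlapping genes and close copies are less certain. The kit and its strandedness are not given in the sources used here.

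Symbols were matched for 56558 of 60675 genes, and 56509 of these lay in the same place in GENCODE release 44, which gave gene types. Groups came from the labels. Counts were tested in R 4.3.3 with edgeR 4.0.16 (filterByExpr with a minimum count of 10, TMM, quasi-likelihood test, Benjamini-Hochberg over 17600 genes), R1881 + CPI-455 over R1881 + vehicle, with no covariate. Before use, this fit was tested on simulated data. The standard error (SE) was derived from that test, as the absolute log2 fold change divided by the square root of its F statistic. CPM are TMM-normalised, and RPKM divide them by exon length. Medians over genes are descriptions without a test.

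All 40 members are named. Of 62 other pathway genes, those named in the results are the 5 called genes of largest change in each direction whose mean log2 CPM reached 3 (only 3 higher genes met this); 1 of these and some marker values are not reported here. Those among the other observations were chosen after their values were seen. Members and lists were chosen with earlier results of these data known. The alternatives were RLE, upper-quartile and total-count scaling, no filter, at least 10 counts in every library, DESeq2 1.42.0, the likelihood-ratio test, a replicate block, removal of the exon length and GC trend (mgcv 1.9.3) with and without the block, thinned libraries, no fold minimum, glmTreat, and each library left out. A limit of 3 fragments corresponds to 0.137 to 0.595 TMM-normalised CPM, highest in the shallowest library. The qPCR, tissue and splicing experiments of the study were not analysed here.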

Additional observations from a re-analysis of the deposited data

How the results depend on the processing

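The sign of the log2 fold change held for 35 of the 40 members in every setting that gives one. The exceptions were LATS1 (0.01387 with the exon length and GC trend removed, 0.0141 with the trend removed and the replicate block), AMOT (0.1213 and 0.1186), DLG1 (0.3297 and 0.3279), TEAD2 (-0.1089 and -0.1172, and also -0.09733 with library totals only, -0.06231 without a filter, -0.04118 without the second vehicle library and -0.1633 without the first CPI-455 library) and CCN2 (-0.03393 without the second CPI-455 library, 1.137 and called without the first). The 17 members called lower became 8 with the trend removed, 8 with the trend removed and the block, 9 with glmTreat and 26 with no fold minimum, which gave 5 called higher. Leaving out each library in turn gave 15 to 19 lower and 3 to 4 higher. The inhibitory median of -0.999 became -0.8241 with upper-quartile scaling, -1.189 with library totals, -1.155 without a filter, -0.8736 with at least 10 counts in every library (39 members, DCHS1 dropped), -0.6172 with the trend removed and -0.8417 with thinned libraries, and -1.166 to -0.8477 with each library left out. The effector and target median of 0.48 became 0.6548, 0.2896 and 0.3245 with upper-quartile scaling, library totals and no filter, 0.3213 with the trend removed and 0.6134 with thinned libraries, and 0.2262 to 0.4636 with each library left out. With the trend removed and the replicate block the medians were -0.618 and 0.3266.

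Labels number the replicates 1 and 2 in each group but do not say that a number marks a shared day or culture. Deviations of same-numbered libraries correlated at 0.04, so the numbers were not taken as pairs. With the replicate block 18 members were called lower (NF2 added) and 3 higher, with medians of -1.007 and 0.4800. Without the first CPI-455 library NF2, FAT4, SCRIB and LIMD1 also passed as lower. Without 1 library of a group, the lone library was assumed to vary like the other group. Depth limits CCN2, FAT4 and DCHS1 most, and the cause of the changes with scaling and trend was not tested.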

Other observations

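TEAD cofactors of the vestigial-like family besides VGLL4 were measured, and they are given with their counts because they were almost absent with CPI-455. VGLL3 had 267 and 242 fragments with vehicle and 3 and 0 with CPI-455, and VGLL2 had 61 and 90 against 3 and 1, both called lower, while VGLL1 had 0 in every library. VGLL3 and VGLL2 passed the filter on low counts only through the vehicle libraries, so lower was the only call open to them. IGFBP3 and NT5E, listed as YAP/TAZ targets, had 25 and 23 and 21 and 16 fragments with vehicle and none in either CPI-455 library. TGFB2, a secreted growth factor gene, had 38 and 46 against 4 and 0. IGFBP3, NT5E and TGFB2 likewise passed the filter only through the vehicle libraries. The genes of this paragraph, F3, CRIM1 and NUAK2 included, were picked with their values in view, and the CPI-455 libraries are the shallower ones. F3 (tissue factor) and CRIM1 also fell, by 1.21 and 1.30 on the log2 scale, and NUAK2, a kinase gene of the YAP network, rose by 1.40 on that scale.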
